A study of Mus musculus with 14 samples.

Results

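miR-142 is a microRNA (miRNA) of blood cells, and its hairpin gives rise to 2 mature strands, miR-142-5p and miR-142-3p. Each strand had its own probe on the arrays. They were picked by name, as the probes named mmu-miR-142-3p or mmu-miR-142-5p on the array, and are 2 of the 343 probes named for mouse miRNAs, each printed in 3 spots per array. Both probes met the filter on dim signal described further on, which 208 of the 343 mouse probes passed. The study measured miRNAs in adherent peritoneal macrophages of BALB/c mice on 14 one-colour arrays in 4 groups. Thioglycollate wild type (3 arrays) and thioglycollate IL-4R KO (3 arrays) held cells drawn into the peritoneum by an injection of thioglycollate, a sterile irritant, and taken on day 3. The groups called nematode wild type and nematode IL-4R KO, of 4 arrays each, held cells taken on day 21 after the filarial worm Brugia malayi had been implanted there. The knockout (IL-4R KO) mice lacked the IL-4 receptor, and no group held untreated mice. Elicitation and day cannot be told apart. The ages of the mice are not given in the sources used here, and neither is the allele of the knockout. Since miRNA arrays do not measure the receptor's transcript, the knockout itself was not checked. Nothing in the labels ties replicates to separate mice, so the p-values below reflect the scatter among these samples, part or all of which may be technical.

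A miRNA hairpin is cut by Drosha and Dicer into a short duplex, and 1 strand of the duplex is kept by an Argonaute protein, which it guides to messenger RNAs. The seed, bases 2 to 8 of the mature strand, does most of the target pairing, so arms with unlike seeds have unlike targets even though they come from 1 transcript. miR-142 is made in cells of all blood lineages, macrophages among them, and is near absent from stromal, epithelial and endothelial cells. For this reason its target sites are built into gene vectors to silence them in blood cells. The IL-4 receptor passes the signals of IL-4 and IL-13, which drive alternative activation of macrophages in worm infection.

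The hairpin and its mature strands are shown first, because the comparisons turn on whether the arms of 1 precursor moved together. Sequences are from RefSeq on build GRCm38.p6. Mir142 lies at chr11:87756864-87756927 on the plus strand, and its 64 bases are printed with the 5p arm and then the 3p arm in capitals.
Mir142: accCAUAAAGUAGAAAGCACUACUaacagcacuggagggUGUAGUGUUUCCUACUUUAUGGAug
In the mature strands the capitals mark the seed. The 5p strand lies at chr11:87756867-87756887 and has 21 bases. The 3p strand lies at chr11:87756903-87756925 and has 23 bases. RefSeq calls them miR-142a-5p and miR-142a-3p, and the array uses the older names without the letter.
mmu-miR-142a-5p: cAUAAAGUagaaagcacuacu
mmu-miR-142a-3p: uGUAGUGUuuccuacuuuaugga
The arms are separated by 15 bases and form 19 base pairs with each other in the structure of lowest predicted free energy, -26.90 kcal per mol by RNAfold. Their seeds differ. Among the mature mouse miRNAs of the RefSeq table that are on the array, only miR-340 (miR-340-5p in RefSeq) shares 6 letters of a seed with either arm. These letters are AUAAAG, of the 5p arm.

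A further hairpin, Mir142b, is annotated on the opposite strand and covers all 64 bases of Mir142. Its mature strand, at chr11:87756906-87756925 on the minus strand, is shown because it resembles the 5p arm.
mmu-miR-142b: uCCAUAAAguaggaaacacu
This strand is identical to the reverse complement of miR-142a-3p over all 20 of its bases. It matches miR-142a-5p at 16 of 18 aligned bases. Probe sequences are not given in the sources used here, and whether the 5p probe also bound miR-142b was not tested. The nearest protein-coding gene in the RefSeq table is Tspoap1, 1267 bases away. Mpo, which encodes the neutrophil and monocyte enzyme myeloperoxidase, lies 36857 bases away.

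The whole array set gives the scale of these measurements. Net intensity is the foreground minus the local background of a spot, in scanner units. Of the 343 mouse probes, 33 to 267 were above blank spots on any 1 array, meaning that the median net intensity of their 3 spots exceeded the 95th percentile of the blank and negative control spots. The dim-signal filter asked for this on at least 3 arrays. The RNA spikes added at labelling (3 bright probes of 10) ran from 320 to 1548 net units (geometric mean) across arrays. Nematode wild type replicate 4 was lowest in both respects, and correlated with the mean of its group mates at 0.835, where the remaining 13 arrays gave 0.936 to 0.977. Each of the 7 slides carried 2 arrays, and slide 12 alone carried 2 groups.

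miR-142-3p was bright in all 4 groups and stood above blank spots on all 14 arrays. Its mean net intensity in thioglycollate wild type was 920, 685 and 925 units on replicates 1 to 3. In thioglycollate IL-4R KO it was 1604, 1233 and 1405 units. On this unnormalized scale the 3 knockout arrays stood above the 3 wild-type arrays. The spike-in signals were also higher in the knockout, at 1327 to 1389 units against 1055 to 1177 units in wild type. The median net intensity of all mouse probes separated the groups in the same direction. It was 25.3, 22.3 and 20.6 units in the knockout and 20.5, 16.3 and 18.6 units in wild type, so the separation was not particular to miR-142-3p. How many mouse probes separated these groups on this scale was not counted. On the normalized scale used further on, 11.1% of mouse probes did so, and miR-142-3p did not. In nematode wild type the 3p signal was 1337, 910, 377 and 155 units on replicates 1 to 4. The nematode IL-4R KO arrays read 666, 718, 2098 and 900 units. Both nematode groups spanned a wider range than either thioglycollate group, and they overlapped. On nematode wild type replicate 4 the median 3p spot was 1.27 times the 95th percentile of the blank spots. On the other 13 arrays it was 11.8 to 90.1 times that value.

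miR-142-5p was also bright in all 4 groups, and stood above blank spots on 13 of the 14 arrays. Its mean net intensity was 1548, 774 and 656 units in thioglycollate wild type. It was 1266, 602 and 665 units in thioglycollate IL-4R KO, so these groups overlapped. In nematode wild type it was 900, 544, 533 and 467 units. The nematode IL-4R KO arrays read 1498, 221, 1222 and 910 units, and replicate 2 lay below every array of the other groups. The 3 spots behind that value did not measure the same signal, reading 24.7, 46.4 and 591 net units. Only the last of them exceeded the blank percentile of that array, 62.6 units. The local background around these spots was 82.0 to 95.5 units, against 59.4 to 63.2 units around the 3p spots of the same array.

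**Figure D1:**
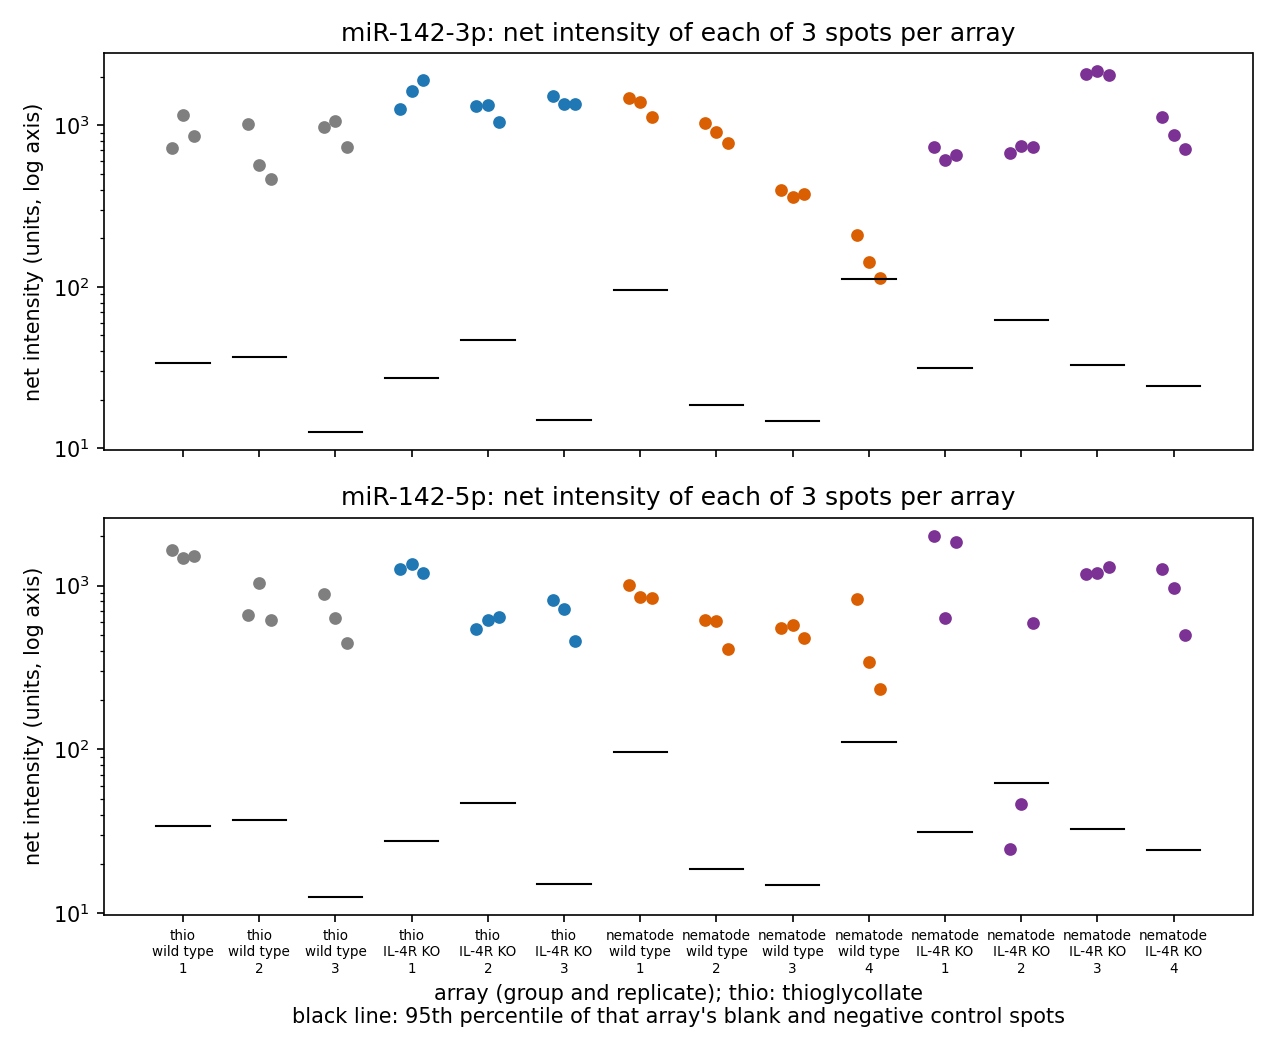
Net intensity of every spot of both probes on a log axis, with 3 points per array and a black line at the 95th percentile of that array's blank and negative control spots. The 3p spots lie close together on most arrays and sink towards the blank level on nematode wild type replicate 4, while the 5p spots of nematode IL-4R KO replicate 2 lie at 24.7, 46.4 and 591 units.

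The remaining results use normalized log2 intensity, for which each array was quantile normalized. That step gives the same value to the same rank, so 2 arrays with an equal value had the probe at an equal rank. Probes bind with unequal strength, so the level of 1 arm says nothing of the level of the other, and each arm is compared only with itself across arrays. In these bulk samples, fewer cells that hold miR-142 and less miR-142 per cell cannot be told apart.

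For miR-142-3p, normalized log2 intensity was 9.53, 9.90 and 10.10 in thioglycollate wild type. In thioglycollate IL-4R KO it was 10.58, 9.78 and 9.90. The group means were 9.84 ± 0.29 (SD, n = 3) and 10.09 ± 0.43 (SD, n = 3), and the arrays of the groups interleaved. In nematode wild type the values were 9.96, 9.90, 9.13 and 7.76, with a mean of 9.19 ± 1.02 (SD, n = 4). In nematode IL-4R KO they were 9.31, 9.68, 11.00 and 10.39, with a mean of 10.09 ± 0.75 (SD, n = 4). Ordered by mean, the groups ran from nematode wild type through thioglycollate wild type to the knockouts, which differed by 0.01. No neighbours in that order differed beyond their spread.

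For miR-142-5p, normalized log2 intensity was 10.20, 10.10 and 9.78 in thioglycollate wild type. In thioglycollate IL-4R KO it was 9.96, 9.13 and 9.31. The means were 10.03 ± 0.22 (SD, n = 3) and 9.47 ± 0.44 (SD, n = 3), and the highest knockout array lay between wild-type values. In nematode wild type the values were 9.38, 9.04, 9.68 and 10.10, with a mean of 9.55 ± 0.45 (SD, n = 4). Those of nematode IL-4R KO were 10.58, 7.16, 9.96 and 10.10, with a mean of 9.45 ± 1.55 (SD, n = 4). The low value of replicate 2 set that mean and SD. The order of group means for 5p ran from nematode IL-4R KO through thioglycollate IL-4R KO and nematode wild type to thioglycollate wild type. The first 3 means lay within 0.10 of each other, and the fourth stood 0.48 above the nearest of them, whose own SD was 0.45.

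**Figure D2:**
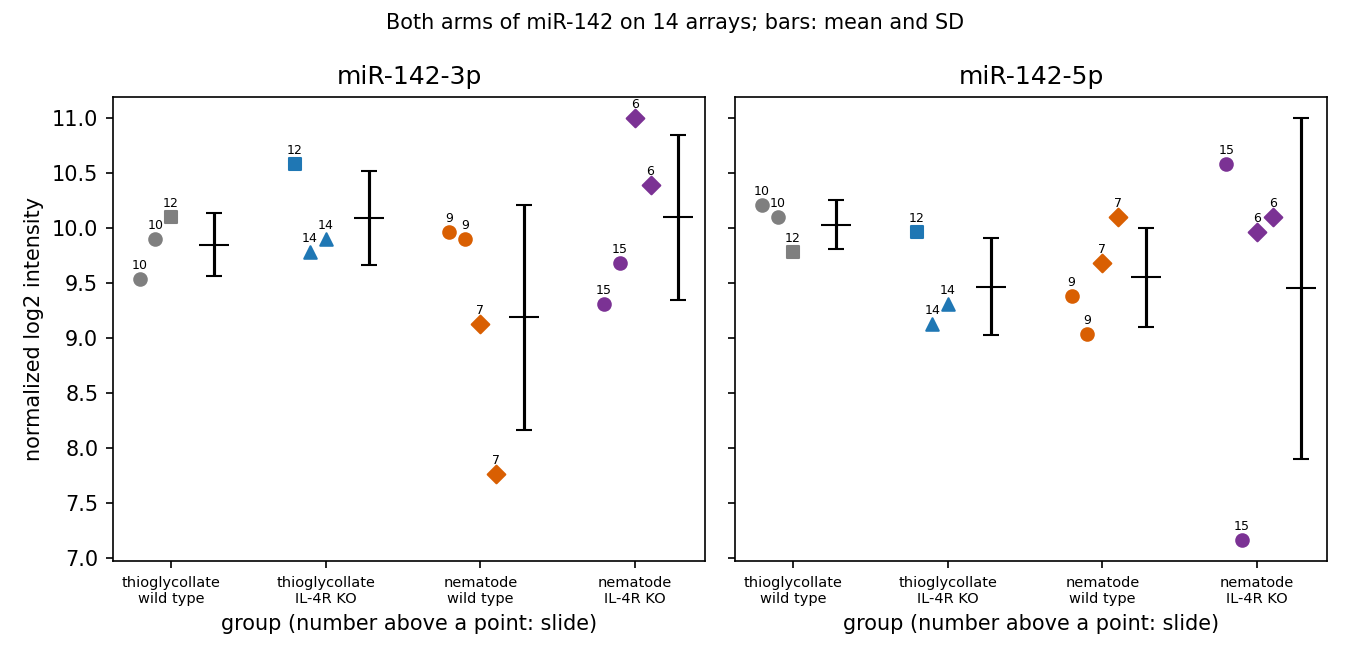
Normalized log2 intensity of miR-142-3p (left) and miR-142-5p (right) on each of 14 arrays by group, with the slide number above each point and the group mean and SD as a bar. The groups overlap for both arms. The low 3p values in nematode wild type, 9.13 and 7.76, are both on slide 7, and the low 5p value of 7.16 is on slide 15.

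Slides split the nematode groups. The 2 nematode wild-type arrays of slide 7 had a mean 3p level of 8.45, against 9.93 for those of slide 9. In nematode IL-4R KO the 3p mean was 10.69 on slide 6 and 9.50 on slide 15. The spike-in signal was 657 and 320 units on the slide 7 arrays, against 1548 and 1317 units on slide 9. In nematode IL-4R KO, the slide with the higher 3p mean had the lower spike-in signal, 522 and 506 units on slide 6 against 758 and 728 units on slide 15. For 5p the slide 7 mean was 9.89 and the slide 9 mean 9.21, the opposite order to 3p. No nematode slide carried both genotypes, so the part of the slide cannot be separated from that of the genotype in these groups. The fit with slide as a random block used a correlation within slides of -0.019, shared by all mouse probes. So small a shared value takes no account of the slide differences of 3p, and that fit does not test them. The fit without slide 7 shows only how far a value rested on the arrays of that slide.

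Both arms varied more between arrays of a group than most mouse probes did. The SD between arrays of a group, pooled over groups, was 0.73 for 3p and 0.91 for 5p. They ranked 6 and 2 of the 208 probes above blank spots, whose median was 0.24. Single arrays weighed on both values. For 3p, nematode wild type replicate 4 lay -1.42 from its group mean, and for 5p, nematode IL-4R KO replicate 2 lay -2.29 from its own. Without that knockout array the SE of the 5p elicitation difference in wild type was 0.27, against 0.62 with it. The ranks without these arrays were not computed. Many of those probes were dimmer, and the processing compresses changes of dim probes. The bright blood-cell probes miR-223, miR-16 and miR-222 had smaller values, at 0.28, 0.22 and 0.32. Further blood-cell probes came closer, at 0.43 for miR-221, 0.53 for miR-146b and 0.54 for miR-15a. Among probes of other miRNAs, the SD was 0.60 for miR-711 and 0.74 for miR-494. It was higher still for miR-705, at 0.85 (median net intensity 276 units), and for miR-298, at 1.58 (126 units). The arms differed in how well their own spots matched. The SD between the 3 spots of an array was 0.25 for 3p, rank 64 of 208, and 0.62 for 5p, rank 4, with a median of 0.20 over the 208 probes. The brightest of the 3 spots was more than 2 times the dimmest on 1 array for 3p and on 4 arrays for 5p.

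**Figure D3:**
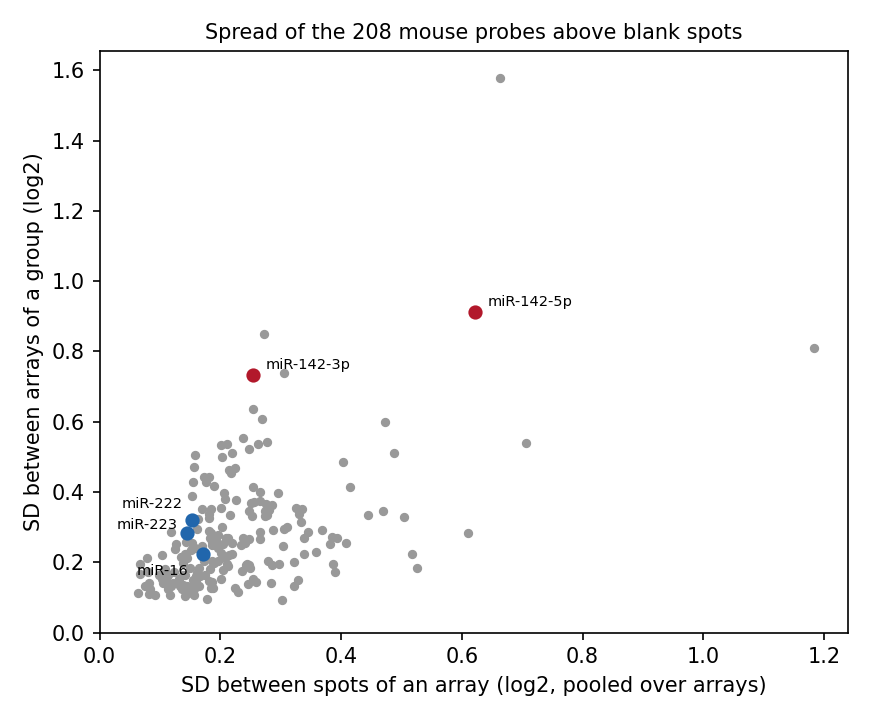
SD between the 3 spots of an array (x axis) against SD between arrays of a group (y axis), both in log2 units and pooled over the 14 arrays, for the 208 mouse probes above blank spots. The 3p probe has spot scatter near that of many probes but an array SD of 0.73, while the 5p probe is high on both axes at 0.62 and 0.91. Points in blue are miR-223, miR-16 and miR-222.

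The first comparison asked whether the IL-4 receptor changes miR-142 in macrophages of the worm infection. miR-142-3p was 1.87-fold lower in nematode wild type than in nematode knockout cells, and this difference did not pass the test. The log2 difference was -0.91 (SE 0.46, 95% confidence interval -1.91 to 0.10, adjusted p = 0.454 by limma with Benjamini-Hochberg adjustment over all 343 mouse probes). In this comparison 1.75% of the mouse probes passed an adjusted p of 0.05, and neither arm was among them. The 3p value depended on slide 7. Without its 2 arrays the log2 difference was -0.16, and without nematode wild type replicate 4 alone it was -0.43. The knockout arrays of slide 6 had a higher 3p mean than those of slide 15, at 10.69 against 9.50. A fit without slide 6 was not run. With slide as a random block the 3p log2 difference was -0.91 (adjusted p = 0.440 by limma). That fit cannot tell slide from genotype, since no nematode slide carried both genotypes. The 26 alternatives gave adjusted p from 0.170 to 0.914. For miR-142-5p the log2 difference was 0.10 (SE 0.58, 95% confidence interval -1.15 to 1.35, limma adjusted p = 0.950). Without nematode IL-4R KO replicate 2, the array whose 5p spots disagreed, it was -0.67 (adjusted p = 0.231 by limma). Over all 26 alternatives its adjusted p ran from 0.231 to 0.974, and changes of 2-fold in either direction lay inside the 5p interval.

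Of the markers of other cells, the summed lymphocyte probes did not overlap between the same groups, and the sums of the other lists overlapped. On the normalized scale, 9.04% of single mouse probes did not overlap between these groups. The share on the net scale of these sums was not counted. The 4 probes of the lymphocyte list (miR-150, miR-342, miR-181a and miR-181b) summed to 40.0 to 112 net units in nematode wild type and 159 to 251 in nematode IL-4R KO, and 3 of the 4 stood above blank spots on at least 3 arrays. Of these 4 only miR-150 passed the test, while miR-342, miR-181a and miR-181b had log2 differences of -0.10, -0.15 and -0.0099. The sum therefore does not speak for the list as a whole. The 4 measured myeloid probes, both arms of miR-142 among them, summed to 4118 to 7853 and 5036 to 8716 units. The sums of the 8 stromal probes were 154 to 461 and 155 to 192 units, with 4 of the 8 above blank spots on at least 3 arrays. For the 7 epithelial probes they were 82.3 to 248 and 117 to 181 units, with 3 of the 7 above blank spots on at least 3 arrays. Of the erythroid probes 1 of 3 stood above blank spots on at least 3 arrays, and of the endothelial probes 1 of 2. Per the labels' protocols, F4/80 and CD11b staining put the purity of the adherent cells above 80%, and lymphocytes also make miR-142. Their part in the miR-142 values was not tested.

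In thioglycollate-elicited cells the receptor was compared in the absence of worms. The log2 difference of wild type minus IL-4R KO was -0.24 for miR-142-3p (SE 0.54, 95% confidence interval -1.41 to 0.92) and 0.56 for miR-142-5p (SE 0.67, 95% confidence interval -0.88 to 2.01). Neither passed, each with an adjusted p of 1 by limma, and 0.292% of the mouse probes did. Slide 12, which held 1 array of each genotype, gave -0.48 for 3p and -0.18 for 5p. With 1 array of each, that pair carries no test. For 3p the log2 difference of the groups was also below 0 under each scaling, at -0.48 with scaling to the spike-in probes, -0.69 with median scaling, -0.33 with cyclic loess and -0.74 without normalization, none of which passed. Without thioglycollate IL-4R KO replicate 1, the knockout array of slide 12, the 3p difference of the groups was 0.0028. For 5p the sign on slide 12 was opposite to the difference of the group means.

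The next comparison set the nematode against thioglycollate within each genotype. In wild type the log2 difference of nematode minus thioglycollate was -0.66 for miR-142-3p (SE 0.50, 95% confidence interval -1.74 to 0.43, limma adjusted p = 0.694). It was -0.48 for miR-142-5p (SE 0.62, 95% confidence interval -1.83 to 0.87, limma adjusted p = 0.894). Here 0.875% of the mouse probes passed. The 3p difference depended on slide 7 here too, and was 0.09 without it. In IL-4R KO cells the log2 differences were 0.01 for 3p (95% confidence interval -1.08 to 1.09, limma adjusted p = 0.991) and -0.01 for 5p (95% confidence interval -1.36 to 1.34, limma adjusted p = 0.988), with 1.46% of mouse probes passing. Values near 0 in this genotype do not show that the arms were unchanged, since each interval spans changes of 2-fold both ways. Without nematode IL-4R KO replicate 2 the 5p difference was 0.75 (adjusted p = 0.338 by limma), and the 26 alternatives gave adjusted p from 0.0946 to 0.999.

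The interaction asked whether the wild-type and knockout responses to the nematode differed. It was -0.66 on the log2 scale for miR-142-3p (SE 0.71, limma adjusted p = 0.904) and -0.47 for miR-142-5p (SE 0.88, limma adjusted p = 0.962), and 0.583% of the mouse probes passed. Over both genotypes, the mean difference of nematode minus thioglycollate was -0.33 for 3p and -0.25 for 5p (limma adjusted p = 0.737 and 0.790), while 2.92% of mouse probes passed. Over both elicitations, wild type minus IL-4R KO was -0.57 for 3p and 0.33 for 5p (limma adjusted p = 0.653 and 0.785), with 3.5% passing. On the normalized scale neither arm separated 2 groups completely in any of the 4 comparisons of single groups. Such separation was seen for 7.87% and 15.7% of mouse probes in the elicitation comparisons in wild type and IL-4R KO, and for 9.04% and 11.1% in the genotype comparisons in nematode and thioglycollate cells.

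**Figure D4:**
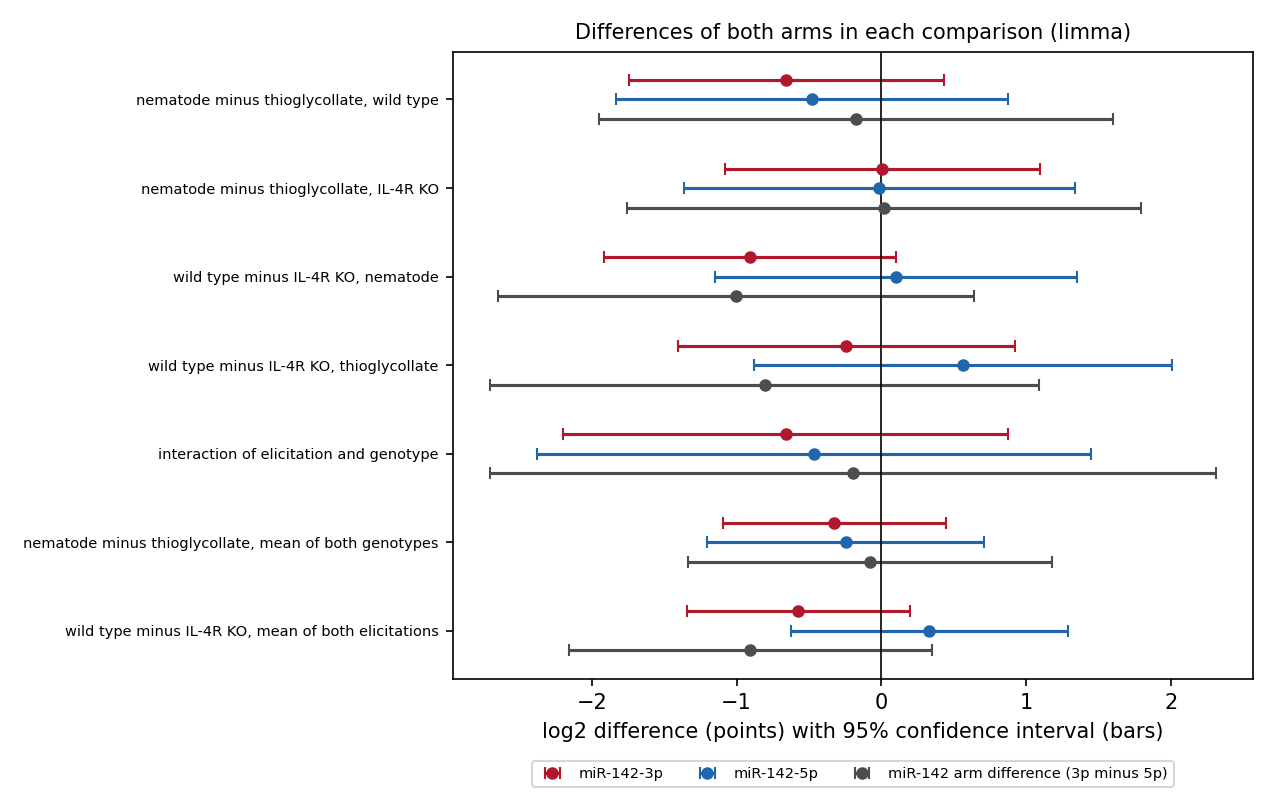
Log2 differences (points) with 95% confidence intervals (bars) from limma for miR-142-3p, miR-142-5p and the difference between the arms in 7 comparisons. All 21 intervals include 0, and those of 5p are wider than those of 3p throughout.

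The arms were then compared with each other, by taking the 3p minus the 5p log2 intensity on each array and comparing that difference between groups. In thioglycollate wild type it was -0.67, -0.20 and 0.32. In thioglycollate IL-4R KO it was 0.62, 0.66 and 0.59, so all 3 knockout arrays lay above all 3 wild-type arrays. Their means were -0.18 ± 0.49 (SD, n = 3) and 0.62 ± 0.03 (SD, n = 3). The gap of -0.81 did not pass the test across the 25 hairpins with both arms on the array (SE 0.87, 95% confidence interval -2.70 to 1.09, limma adjusted p = 0.929). Of these hairpins 8% had thioglycollate groups that did not overlap and 0% passed the test. When only these 2 groups were fitted, so that the wide spread of the nematode arrays did not enter, the adjusted p was 0.0587 by limma, the lowest of the 26 alternatives, which ran up to 0.966. On slide 12 alone the wild-type array lay 0.30 below the knockout array.

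In nematode wild type the difference between arms was 0.58, 0.86, -0.56 and -2.34, with a mean of -0.36 ± 1.45 (SD, n = 4). In nematode IL-4R KO it was -1.27, 2.52, 1.04 and 0.29, with a mean of 0.64 ± 1.58 (SD, n = 4). These groups overlapped over most of their range, and the lowest and highest of the 14 arrays were nematode wild type replicate 4, the array with the dimmest 3p signal, and nematode IL-4R KO replicate 2, the array with the dimmest 5p signal. The 3p signal relative to 5p was 2.01-fold lower in nematode wild type than in the knockout (SE 0.76 on the log2 scale, limma adjusted p = 0.666), and the log2 difference was 0.08 without slide 7, -0.35 without nematode wild type replicate 4 and -0.38 without nematode IL-4R KO replicate 2. For nematode minus thioglycollate it was -0.18 in wild type and 0.02 in IL-4R KO (limma adjusted p = 0.878 and 0.981). The interaction was -0.20 (limma adjusted p = 0.943). Groups that did not overlap were seen for 4% of hairpins in this comparison, and for 24% and 4% between elicitations in wild type and IL-4R KO. In none of the 7 comparisons did any of the 25 hairpins pass by limma, and between 1 and 3 of them had an unadjusted p under 0.05 in each. Within groups the arm difference of miR-142 had an SD of 1.20, the highest of the 25 hairpins. The next was miR-30e at 0.58. Both arms stood above blank spots on at least 3 arrays for 9 of the 25 hairpins, miR-142 among them. The median net intensity of the miR-142 arms was 891 units for 3p and 687 units for 5p. The rest of these 9 each had a much dimmer arm, such as miR-30e* at 21.2 units. The processing compresses changes of dim probes, so these SDs are not compared at like brightness.

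No relation between the arms across arrays was detected. Over all 14 arrays Pearson's r between the normalized log2 intensities of 3p and 5p was -0.05 (permutation p = 0.830) and Spearman's rho was -0.10 (permutation p = 0.728), each two-sided with 100000 permutations. This was the only relation tested in this way. Without nematode wild type replicate 4 and nematode IL-4R KO replicate 3, the arrays farthest from the 3p median, r was 0.05. The deviations from group means gave an r of -0.05. The sign depended on the scaling: r was 0.43 when arrays were scaled to their median and 0.41 without normalization (permutation p = 0.124 and 0.145).

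**Figure D5:**
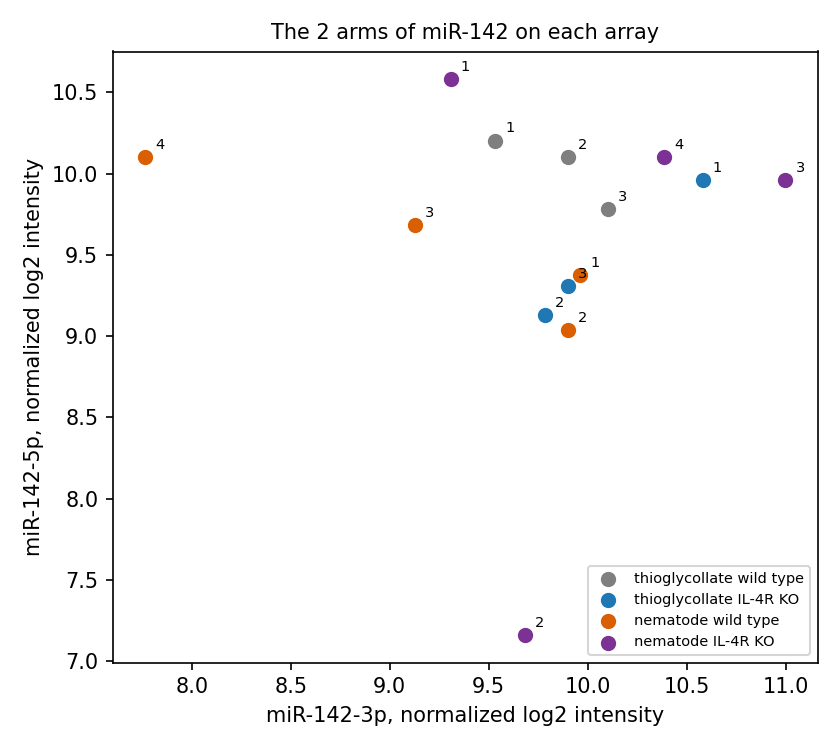
Normalized log2 intensity of miR-142-3p (x axis) against miR-142-5p (y axis) on each of 14 arrays, coloured by group, with the replicate number beside each point. Nematode wild type replicate 4 lies alone at low 3p (7.76) and nematode IL-4R KO replicate 2 alone at low 5p (7.16), and the other 12 arrays fall between 9.13 and 11.00 for 3p.

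The probes whose pattern over the 14 arrays was most like each arm were not shared between the arms. For miR-142-3p these were miR-326 (r = 0.85), let-7g (0.84), miR-691 (0.80), miR-494 (0.78) and miR-29c (0.77), chosen among 207 candidates above blank spots. Much of that likeness came from nematode wild type replicate 4. Without it the values of r were 0.63, 0.56, 0.34, 0.41 and 0.68 in the same order. For miR-142-5p the highest values were lower, at 0.48 for miR-542-3p, 0.48 for miR-96, 0.41 for miR-483, 0.34 for miR-207 and 0.34 for miR-130b. Without nematode IL-4R KO replicate 2 they were 0.61, 0.12, 0.29, 0.15 and 0.13 in the same order. The miR-542-3p probe was above blank spots on 3 of the 14 arrays. Among the 207 candidates for 3p, the 5p arm ranked 167. These values describe arrays that share normalization and slides, and carry no test.

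The other miRNAs known for blood cells place the arms in context. The list held 19 probes with both arms of miR-142 included, all on the array, and 15 of them stood above blank spots on at least 3 arrays. In nematode-elicited cells, wild type against IL-4R KO, 1 of the 19 passed in the upward direction and 1 in the downward direction, where 1.75% of all mouse probes passed. miR-223, a miRNA of granulocytes and macrophages, was higher in wild type by 1.34 on the log2 scale (SE 0.19, adjusted p = 0.000697 by limma). miR-150, abundant in mature lymphocytes, was lower in wild type, at -0.96 (SE 0.13, adjusted p = 0.000573 by limma). The list's median was -0.06, beside -0.00 over all mouse probes. In thioglycollate-elicited cells, where 0.292% of mouse probes passed, no member did, and the medians were 0.01 and 0.00.

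Between elicitations in wild type, 0 members were higher and 2 were lower with the nematode, where 0.875% of all mouse probes passed. These were miR-146, a feedback regulator of Toll-like receptor signalling, and miR-342, with log2 differences of -0.76 (SE 0.12) and -0.81 (SE 0.16) and limma adjusted p of 0.00504 and 0.0297. In IL-4R KO, miR-150 was higher by 1.01 (SE 0.14, limma adjusted p = 0.00107) and miR-222, known in human cells to target the cell-cycle inhibitor p27, was lower, at -1.31 (SE 0.22, limma adjusted p = 0.00764). In that comparison 1.46% of mouse probes passed. The list medians in wild type and IL-4R KO were -0.11 and -0.03, beside -0.02 and -0.04 over all mouse probes. Over both genotypes, where 2.92% of mouse probes passed, 1 member was higher (miR-150, 0.59) and 4 were lower (miR-146, -0.47, miR-221, -1.14, miR-222, -1.10, and miR-342, -0.61), with a list median of -0.12 beside -0.03. Over both elicitations, where 3.5% passed, miR-223 was higher in wild type (0.84) and miR-150 lower (-0.53), with medians of 0.02 and 0.00. No member passed for the interaction, in which 0.583% of mouse probes did and the medians were -0.15 and -0.00. miR-155, induced by inflammatory signals, and miR-21, an abundant macrophage miRNA, passed in none of the 7 comparisons. Their log2 differences between elicitations in wild type were 0.11 and -0.43. After quantile normalization miR-21 read 12.37 on every thioglycollate array, because it held an equal rank there. The genotype comparison in those cells therefore could not show a change in miR-21 level within that rank.

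miR-340, the probe whose seed shares 6 letters with that of miR-142-5p, had log2 differences of -0.41 (nematode minus thioglycollate in wild type) and -0.08 (wild type minus IL-4R KO in nematode cells), with limma adjusted p of 0.327 and 0.785. It passed in none of the 7 comparisons.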

How the data were processed

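Total RNA from adherent macrophages was labelled with Hy3 and hybridised to miRCURY LNA arrays. For every spot the deposited slide files give a foreground intensity and a local background intensity, per the file headers linear, read in fixed circles, and left by the authors without background subtraction or normalization. The authors' deposited value table equalled foreground minus background within 0.001. No named spot was saturated. R 4.3.3 and limma 3.58.1 were used. After normexp background correction (offset 50) and log2, spots were averaged per probe and arrays quantile normalized over 1309 named miRNA probes, which compresses changes of dim probes. Groups were taken from the sample titles. limma fitted 1 mean per group over all 14 arrays, with eBayes, two-sided tests, Benjamini-Hochberg adjustment within each comparison over 343 mouse probes (25 hairpins for the arm difference) and a threshold of 0.05. The scripts were tested on simulated data. RNA folding used RNAfold 2.7.2.

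The named miRNAs are both arms, the 5 probes most correlated with each among probes above blank spots on at least 3 arrays, members of a list of 19 blood-cell miRNAs that passed together with miR-223, miR-155, miR-150 and miR-21, hairpins that passed the arm test, and array miRNAs sharing 6 seed letters. miR-16, miR-222, miR-146b, miR-15a, miR-711, miR-705 and miR-298 were added as comparators of spread, and miR-30e as the next hairpin by spread, after their values were seen. The myeloid list had 5 members, of which 4 were matched to probes. The members and lists were chosen with earlier results of these data known. The number of arrays limits precision. Alternatives were no background correction, the authors' table floored at 1, median scaling, cyclic loess, no normalization, median of spots, a filter on dim probes, the compared groups alone, replicate and slide blocks and each array left out. Scaling to 3 bright spike-in probes and leaving out slide 7 were added after the data were seen.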

Additional observations from a re-analysis of the deposited data

How the results depend on the processing

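No miR-142 value passed the threshold under any of the 12 settings or with any of the 14 arrays left out. Of 249 values under the settings, 211 kept their direction and 38 changed sign. With 1 array left out, 285 of 308 kept it and 23 changed sign. Under the settings the arm difference for elicitation in wild type changed sign most often, under 6 of 12, with a main value of -0.18. The 5p difference for elicitation in IL-4R KO, with a main value of -0.01, changed sign under 1 of 12. The cause was not tested. Elicitation differences are nematode minus thioglycollate, genotype differences are wild type minus IL-4R KO, and all values are log2. Without slide 7 the changed signs were 0.087 for 3p and 0.91 for the arm difference (elicitation in wild type), -0.24 for 5p and 0.081 for the arm difference (genotype in nematode cells), 0.081 and 0.89 for 3p and the arm difference in the interaction, and 0.046 and 0.46 for the mean elicitation. Median scaling gave an arm difference of 0.058 (elicitation in wild type), -0.27 (in IL-4R KO) and 0.33 (interaction), and the same 3 values came without normalization and with spike-in scaling, because a scaling factor cancels between arms. Cyclic loess gave 0.092, -0.22 and 0.31. For 3p, elicitation in IL-4R KO was -0.48 with median scaling, -0.34 with cyclic loess, -0.50 without normalization and -0.11 with the median of spots. For 5p, the nematode genotype difference was -0.12 without background correction, -0.23 with median scaling and -0.21 without normalization, and the mean genotype difference without normalization was -0.0092. The authors' table gave 0.019 for the arm difference in the mean elicitation. Spike-in scaling gave 5p 0.86 for elicitation in IL-4R KO, -0.61 for genotype in nematode cells, 0.33 for the mean elicitation and -0.078 for the mean genotype difference, and 3p 0.22 for the mean elicitation. Under it the median of all mouse probes was 0.52 and 1.04 for elicitation in wild type and IL-4R KO, -0.39 and 0.18 for genotype in nematode and thioglycollate cells and -0.52 for the interaction, where the main medians were -0.02, -0.04, -0.00, 0.00 and -0.00. Relative to that median, 3p was -0.66, -0.46, -0.82, -0.66 and -0.20, and 5p was -0.72, -0.19, -0.22, 0.27 and -0.53. Mouse probes past the threshold in the nematode genotype comparison numbered 6, and 1 to 14 under the settings. In the elicitation comparison in IL-4R KO they numbered 5, and 266 with spike-in scaling, all higher. The correlation of the arms was 0.43 with median scaling and 0.41 without normalization.

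With 1 array left out, ranges that crossed 0 ran as follows. For elicitation in wild type, the arm difference was -0.58 to 0.48. For elicitation in IL-4R KO, 3p was -0.30 to 0.27, 5p -0.39 to 0.75 and the arm difference -0.61 to 0.66. For genotype, 5p was -0.67 to 0.47 in nematode cells, 3p -0.40 to 0.0028 in thioglycollate cells, and 5p -0.051 to 0.52 over both. For the mean elicitation, 5p was -0.44 to 0.13 and the arm difference -0.39 to 0.25. The arm difference for genotype in nematode cells kept its sign but ran from -1.64 to -0.35. In the interaction it was -0.84 to 0.46, and the correlation of the arms -0.16 to 0.12. The ends of these ranges came mostly from leaving out nematode wild type replicate 4 or nematode IL-4R KO replicate 1, 2 or 3.

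Correlations of deviations did not show that replicate numbers pair the samples, though weak correlations cannot exclude a pairing. Of 19 same-numbered pairs across groups, 5 had a correlation of deviations over 0.1, and the median was -0.01. With a replicate block the sign of the arm difference changed for elicitation in wild type (0.21) and over both genotypes (0.31), with no call changed. The number of arrays limits every value here, and signal close to the blank level limits 3p on nematode wild type replicate 4 and 5p on nematode IL-4R KO replicate 2.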
